A study of Arabidopsis thaliana with 8 samples.

Results

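The genes described are 45 genes of Arabidopsis thaliana that loosen, remodel or build the primary cell wall, namely 18 expansins, 22 xyloglucan endotransglucosylase/hydrolases (XTHs) and 5 cellulose synthases of the primary wall (CESAs). They were chosen by gene identifier, with earlier results of these data known. Of these 45 genes, 4 were among the 2958 genes in the authors' deposited table. All 4 stood lower in the libraries given DIV1: the alpha expansins EXPA1 and EXPA4, the xyloglucan enzyme XTH24 and the cellulose synthase CESA6. The other 41 members had no row. The share of members called lower, 8.89%, lay close to the 7.28% of all tested genes called lower. In either direction 16.4% of all tested genes were called.

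A growing plant cell enlarges when its wall yields to turgor. Expansins loosen the contacts between cellulose and the matrix without cutting them, XTHs cut xyloglucan chains and join the ends to other chains, and CESAs assemble in the plasma membrane into complexes that spin out cellulose microfibrils. Protoplasts, which are cells stripped of their walls by enzymes, lay down new wall in culture, so these families bear on regrowth as well as on leaf growth.

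The series used TARGET, in which a transcription factor is brought into protoplasts on a plasmid and transcripts are read out by sequencing, to ask which genes respond to DIV1, a MYB-related factor of the DIVARICATA type. The cells came from 4-week-old rosettes of the accession Col-0, whose sliced leaves were digested for 90 min with cellulase and macerozyme, and were given plasmid with polyethylene glycol and kept overnight. The div1 group and the ev group held 4 libraries each. The meaning of ev is not spelled out (an empty vector is the common reading), and no promoter or inducing agent is named. The same digestion, transfection and overnight culture are described for both groups. The comparison is therefore between plasmids in cells without their original walls, and not between walled and wall-less cells. No label says whether the 2 groups were handled together or came from the same batch of cells.

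Each value below comes from the authors' deposited table of genes with an adjusted p under 0.05. It holds a mean over the 8 libraries and a log2 fold change with standard error (SE), but no value per library. Whether single libraries of the 2 groups overlap, and how deep each was, is therefore unknown. No label ties the replicates to separate plants or separate transfections, so the SE and p measure the spread between these libraries, which may be technical. The log2 fold change of DIV1 itself (AT5G58900) was 7.61 (SE 0.88) with an adjusted p of 1.12e-15 in the authors' deposited table. No numerator is named there, and a positive sign is read as higher in div1 from this gene. The deposited p-values imply 18010 tested genes, of which 16.4% were called, 9.14% higher and 7.28% lower in div1. Among the 45 members 8.89% were called, all lower. The members' share lower lay close to the 7.28% of all tested genes, and 0 of 45 members were called higher, where the background was 9.14%. How many of the 41 members without a row were tested is unknown, and the members' share is taken over all 45.

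**Figure D1:**
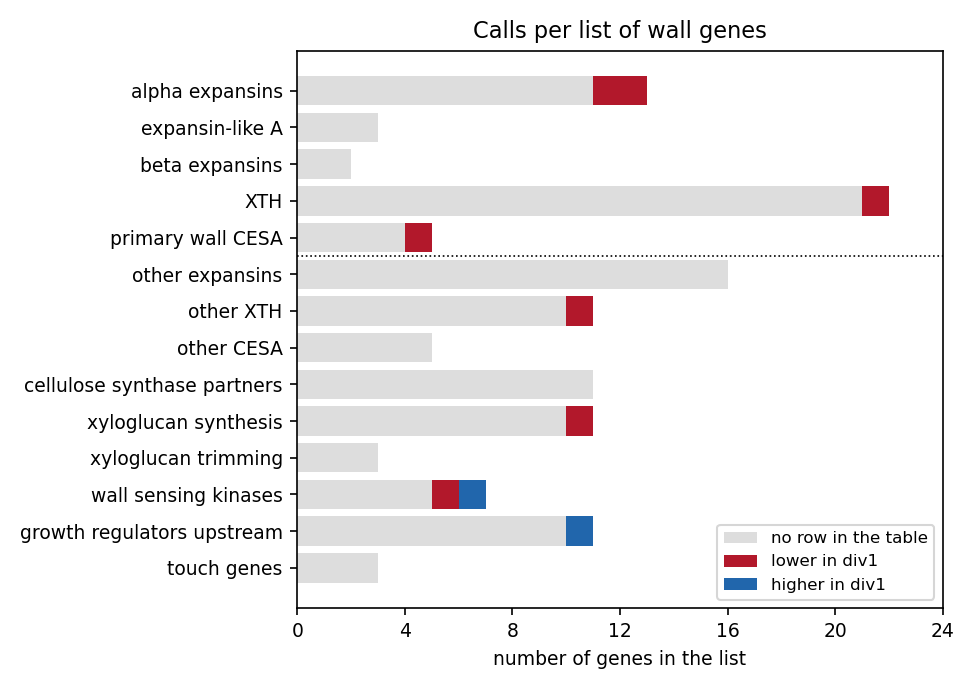
Number of genes per list (x axis, genes) with no row in the authors' deposited table (grey), lower in div1 (red) or higher in div1 (blue); lists above the dotted line hold the 45 members and those below it other wall genes. Calls number 2 of 13 alpha expansins (15.4%), 1 of 22 XTHs (4.55%) and 1 of 5 CESAs (20.0%), beside 16.4% of all tested genes. The largest share is that of the wall sensing kinases, 2 of 7 (28.6%).

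The 2 called expansins had the largest estimated decreases of the 4 called members. Their 95% intervals overlap that of XTH24 (40.6% to 67.1% of the ev level), and the interval of EXPA1 contains it. Of 18 expansins examined, 2 fell and 0 rose, both calls being among the 13 alpha expansins, the class known for acid-induced wall extension. The share called was 11.1% of the expansins and 15.4% of the alpha expansins, beside 16.4% of all tested genes, of which 7.28% were lower. EXPA4 (AT2G39700, chromosome 2, 16543832 to 16545746, minus strand, TAIR10.1 annotation, 3 exons) had a mean of 823 normalized counts over the libraries in the authors' deposited table. Its log2 fold change was -1.47 (SE 0.34, adjusted p 2.80e-04) in the authors' deposited table. This places the div1 level at 36.0% of the ev level, with a 95% interval from 22.6% to 57.3%. Under the assumption of equal group sizes, the mean and fold in the authors' deposited table correspond to about 436 normalized counts in div1 and 1211 in ev.

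EXPA1 (AT1G69530, chromosome 1, 26141726 to 26143538, plus strand, TAIR10.1 annotation, 4 exons) had a mean of 7877 normalized counts in the authors' deposited table. Its log2 fold change was -1.08 (SE 0.29, adjusted p 0.00267) in the authors' deposited table. The div1 level was 47.5% of the ev level, with a 95% interval from 31.9% to 70.5%, or about 5070 normalized counts in div1 against 10684 in ev. EXPA1 is known from guard cells, in which wall loosening accompanies stomatal opening. None of 5 guard cell markers, among them the potassium channel KAT1 and the transcription factor MYB60, had a row in the authors' deposited table, beside 16.4% of all tested genes. Without a row their levels are unknown, as is whether they were tested, so they do not show how many guard cells the libraries held. In libraries of mixed cells, fewer cells of a type and less RNA per cell cannot be told apart.

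The fold changes of both expansins were less precise than those of other listed genes at their level. Among 442 genes in the table with a mean within 2-fold of that of EXPA1, the median SE was 0.147, and 96.6% had a smaller SE than EXPA1. Among 1005 genes near EXPA4 the median SE was 0.180, and 95.1% had a smaller SE. All genes compared are called ones, and a gene with a large SE needed a large change for a row. These shares therefore do not describe all expressed genes. The intervals of both genes include changes smaller than 2-fold.

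**Figure D2:**
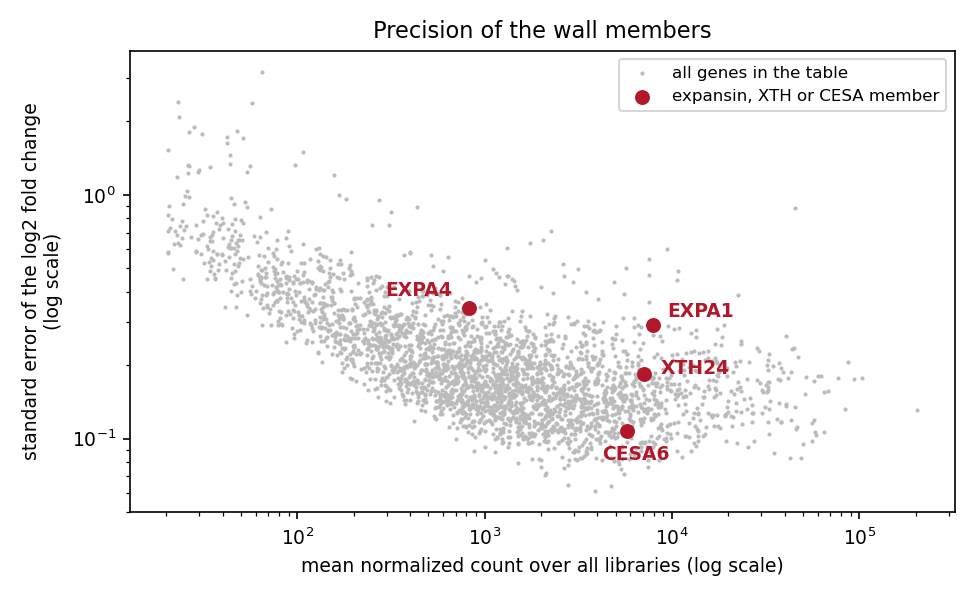
Standard error of the log2 fold change (y axis, log2 units on a log scale) against the mean normalized count over all libraries (x axis, log scale) for all 2958 genes in the authors' deposited table (grey) and the 4 wall members (red). EXPA4 at 0.34 and EXPA1 at 0.29 lie near the upper edge of this cloud of called genes at their means. CESA6 at 0.11 lies in its lower part: of 572 called genes with a mean within 2-fold, 16.3% had a smaller SE.

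The remaining alpha expansins, EXPA2, EXPA3, EXPA5, EXPA6, EXPA8, EXPA9, EXPA10, EXPA11, EXPA14, EXPA15 and EXPA16, had no row. Neither did the beta expansins EXPB1 and EXPB3 nor the expansin-like genes EXLA1, EXLA2 and EXLA3. The closest relatives by coding sequence were among these. EXPA1 matched EXPA10, a gene of leaf growth, at 79.7% of aligned coding bases, and EXPA4 matched EXPA16 at 81.1%. The 90 bases of coding sequence around the longest run that EXPA4 and EXPA16 share are shown to let a reader see how far apart their reads would be; capitals mark the 29 identical bases, and 8 bases differ within the stretch (RefSeq, TAIR10.1, sense strand, coding bases 472 to 561 of EXPA4 and 481 to 570 of EXPA16).
EXPA4: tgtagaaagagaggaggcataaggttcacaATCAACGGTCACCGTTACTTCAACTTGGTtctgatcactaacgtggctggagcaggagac
EXPA16: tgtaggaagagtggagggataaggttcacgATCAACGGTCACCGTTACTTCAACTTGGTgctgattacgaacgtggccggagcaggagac
The longest run that EXPA1 shared with EXPA10 was 32 bases. Read length and the handling of reads with several matches were not stated in the labels. Neither EXPA1 nor EXPA4 overlaps another annotated gene.

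XTH24 had the smallest adjusted p of the 4. It is also known as MERI5B and as SEN4, names that refer to meristems and to senescing leaves. XTH24 (AT4G30270, chromosome 4, 14819192 to 14820595, minus strand, TAIR10.1 annotation, 3 exons) had a mean of 7077 normalized counts in the authors' deposited table. Its log2 fold change was -0.94 (SE 0.18, adjusted p 1.09e-05) in the authors' deposited table. The div1 level was 52.2% of the ev level, with a 95% interval from 40.6% to 67.1%, or about 4857 normalized counts in div1 against 9298 in ev. Per kilobase of transcript, XTH24 and EXPA1 had means of 5849 and 5959 normalized counts, against 549 for EXPA4 and 1376 for CESA6, computed from the authors' deposited table.

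XTH24 was the only called gene of the 22 XTH members, a share of 4.55% beside the 16.4% of all tested genes. It stands in a row of related genes on chromosome 4, where XTH18 lies 5161 bases and XTH19 8116 bases away, both on the same strand. Neither XTH18 nor XTH19, which are known from roots, had a row. The closest relative by coding sequence was XTH22 (TCH4, a gene induced by touch and brassinosteroid), at 75.4% of aligned bases with no shared run in their transcripts longer than 17 bases. XTH22 had no row either. The other XTHs without a row were XTH4, XTH5, XTH6, XTH7, XTH8, XTH9, XTH15, XTH16, XTH17, XTH20, XTH21, XTH23, XTH25, XTH27, XTH28, XTH30, XTH31 and XTH33. They include XTH4 and XTH9, known from growing stems, and XTH31, known for hydrolysis of xyloglucan.

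Of the 5 primary wall cellulose synthases 1 was called (20.0%), beside 16.4% of all tested genes. This was CESA6, with the smallest change of the 4 members. CESA6 (AT5G64740, chromosome 5, 25881033 to 25886728, plus strand, TAIR10.1 annotation, 13 exons) had a mean of 5742 normalized counts in the authors' deposited table. Its log2 fold change was -0.29 (SE 0.11, adjusted p 0.0418) in the authors' deposited table. The div1 level was 81.6% of the ev level, with a 95% interval from 70.5% to 94.5%, or about 5161 normalized counts in div1 against 6323 in ev. It ranked 2821 of 2958 by adjusted p, near the end of the table. The call is lost at an adjusted p under 0.01.

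The primary wall complex is known to need CESA1, CESA3 and a subunit of the CESA6 type, which CESA2, CESA5 or CESA9 can partly replace. CESA1, CESA2, CESA3 and CESA5 had no row in the authors' deposited table, and neither had CESA9 among the other CESAs. CESA6 and CESA5 are close, with 86.0% of aligned coding bases identical and a longest shared run of 50 bases. That run is shown in capitals within 90 coding bases, of which 3 differ, because it is the longest that any of the 4 members shares with a gene of its own family (RefSeq, TAIR10.1, sense strand, coding bases 1685 to 1774 of CESA6 and 1649 to 1738 of CESA5).
CESA6: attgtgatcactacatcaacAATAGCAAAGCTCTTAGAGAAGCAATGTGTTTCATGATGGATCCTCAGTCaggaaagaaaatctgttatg
CESA5: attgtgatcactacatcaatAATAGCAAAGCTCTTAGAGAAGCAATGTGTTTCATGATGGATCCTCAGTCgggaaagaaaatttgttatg
Neither XTH24 nor CESA6 overlaps another annotated gene, whereas 27.0% of all genes in the table do.

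**Figure D3:**
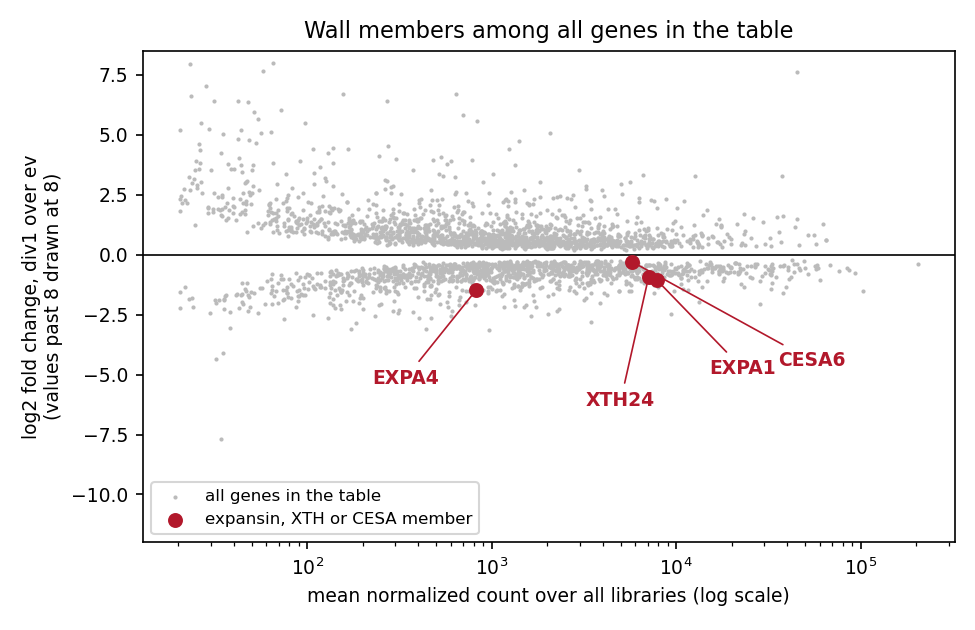
Log2 fold change of div1 over ev (y axis) against the mean normalized count over all libraries (x axis, log scale) for all 2958 genes in the authors' deposited table (grey) and the 4 wall members (red). EXPA4, with a mean of 823, lies below the table's median mean of 1092 and the other 3 members lie above it, and the members' log2 fold changes run from -0.29 to -1.47. Values above 8 are drawn at 8.

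The members spread over the range of the 1312 genes called lower. Of these genes, 13.2% had a larger decrease than EXPA4, 26.1% than EXPA1, 34.3% than XTH24 and 98.7% than CESA6. The members' median log2 fold change was -1.01, beside -0.76 for all genes called lower in the authors' deposited table, and both values describe called genes only. A fall of 2-fold or more was listed for 2 of 45 members (EXPA1 and EXPA4), beside 2.2% of all tested genes.

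The absence of a row does not show that a gene did not change. The smallest absolute test statistic in the authors' deposited table was 2.64. At 0.189, the median SE of the called genes, a log2 change of about 0.50, or 1.41-fold, was therefore needed for a row. At the 90th percentile of their SE, 0.422, the change needed was 1.12 on the log2 scale. EXPA4 and EXPA1, with an SE above that median, needed a larger change than 0.50 to be listed. The SEs of genes without a row are not known and may be larger. A member without a row may have changed by less than its own SE allowed to be called, or may not have been tested for lack of reads.

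DIV1 belongs to factors that bind DNA through MYB-type domains, so the bases upstream of the members were described. Factors of this type are known to bind words around TATCCA and GATAAG, and CACGTG, the G-box, was added for comparison. Each word was searched on both strands in the 250 bases before the annotated start. The reverse complement of TATCCA shares 4 letters with GATAAG, so both can be read from overlapping bases. EXPA1, EXPA4 and CESA6 held none of the words in this window. The window of EXPA4, the member with the largest decrease, is given here, with no base in capitals because no word was found (RefSeq, TAIR10.1, chr2:16545747-16545996, minus strand, written 5′ to 3′ along the gene).
EXPA4: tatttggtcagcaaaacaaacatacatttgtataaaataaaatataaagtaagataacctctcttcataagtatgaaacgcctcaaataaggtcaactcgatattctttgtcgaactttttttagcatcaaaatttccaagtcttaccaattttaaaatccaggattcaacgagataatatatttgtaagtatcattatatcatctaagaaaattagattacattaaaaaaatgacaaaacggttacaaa
No match says only that these letters are not in this window. Among all 45 members 5 windows held TATCCA (11.1%), 3 held GATAAG (6.67%) and 0 held CACGTG. Of 27443 windows of protein-coding genes, 13.6% held TATCCA, 12.3% GATAAG and 6.49% CACGTG. Of 2920 windows of genes in the authors' deposited table, 14.8% held TATCCA, 14.4% GATAAG and 8.15% CACGTG.

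The members with a word had no row in the authors' deposited table. With only 4 members called, this lack of overlap does not show that words and calls exclude each other. The members with a word were XTH27, EXPA8, EXLA3, XTH23 and EXPA9 for TATCCA, and EXPA11, XTH23 and CESA2 for GATAAG. XTH23, a touch-responsive relative of XTH22, was the member that held both words, the reverse complement of TATCCA beginning at base -52 and GATAAG at base -23 from the annotated start. In EXPA11 GATAAG began at base -8. The 30 bases around each of these matches are shown to place the words, with the word in capitals (RefSeq, TAIR10.1, sense strand of each gene; XTH23 at chr4:13128330-13128359 and chr4:13128359-13128388, plus strand; EXPA11 at chr1:6999840-6999869, minus strand).
XTH23, TATCCA on the other strand: aggctcatccttTGGATAatagtatgaaac
XTH23, GATAAG: cttgtcaataaaGATAAGtcatcacaagta
EXPA11, GATAAG: agatacacacaggctagataaaGATAAGac
A match is a description and not a binding site.

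Other genes of the same families gave few calls. Of 16 further expansins, which include the root hair genes EXPA7 and EXPA18, 0 were called. Of 11 further XTHs 1 was called lower, XTH29, whose log2 fold change was -0.94 (SE 0.21; adjusted p 1.05e-04) at a mean of 522 normalized counts in the authors' deposited table. Of 5 further CESAs, including the secondary wall subunits CESA4, CESA7 and CESA8, 0 were called. Over the families as a whole 2 of 34 expansins, 2 of 33 XTHs and 1 of 10 CESAs were called, all lower. These shares of 5.88%, 6.06% and 10.0% lie beside the 16.4% of all tested genes, and many of these genes may not have been tested.

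Over all 78 other wall genes examined 5 were called (6.41%), 2 higher and 3 lower, beside 16.4% of all tested genes. Of 11 partners of the cellulose synthase complex, such as KOR1, COB and CSI1, 0 were called. Of 11 genes of xyloglucan synthesis 1 was called lower. This was MUR3, which adds galactose to xyloglucan side chains, with -0.63 on the log2 scale (SE 0.14, adjusted p 1.68e-04) in the authors' deposited table. None of 3 genes that trim xyloglucan was called.

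Of 7 wall sensing kinases 1 rose and 1 fell, a share of 28.6% beside 16.4% of all tested genes. THE1, a receptor kinase known for slowing growth when cellulose synthesis is impaired, stood at 1.53 on the log2 scale (SE 0.21, adjusted p 2.73e-11) in the authors' deposited table. Its div1 level was 289% of the ev level, with a 95% interval from 217% to 385%. The related kinase HERK1 stood at -0.48 (SE 0.18, adjusted p 0.0498) in the authors' deposited table, close to the threshold, and it overlaps 2 annotated genes on the opposite strand in a library kit that does not keep strand. Among 11 regulators of cell elongation, which include the brassinosteroid factors BZR1 and BES1, 1 rose (9.09%), beside 9.14% of all tested genes higher. PIF4, a factor that promotes elongation in shade and warmth, stood at 1.12 on the log2 scale (SE 0.24, adjusted p 6.86e-05) in the authors' deposited table. None of 3 touch genes was called.

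**Figure D4:**
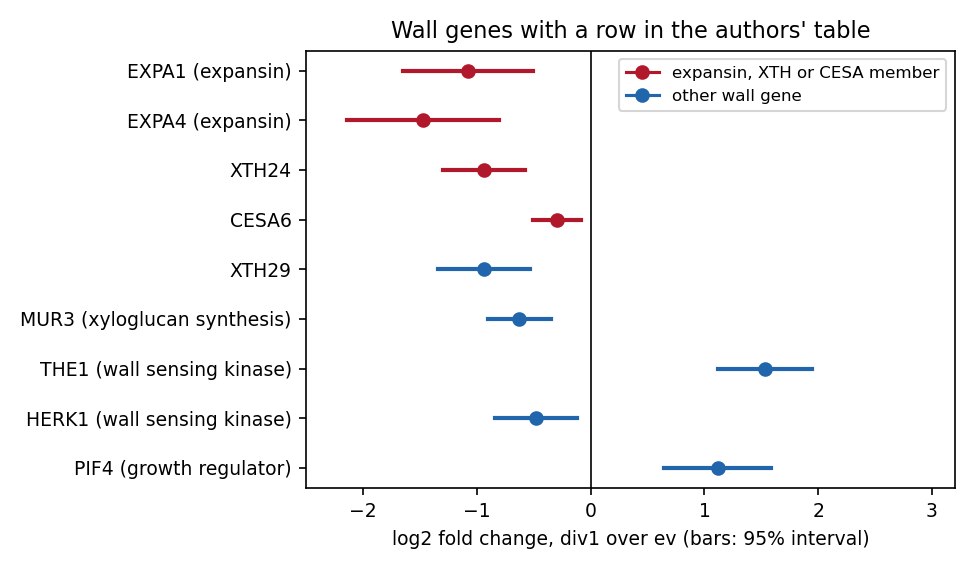
Log2 fold change of div1 over ev (x axis; points) with 95% intervals (bars) for the 4 wall members (red) and the 5 other wall genes (blue) with a row in the authors' deposited table. All 4 members lie below 0, from -1.47 for EXPA4 to -0.29 for CESA6, while THE1 at 1.53 and PIF4 at 1.12 lie above it.

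No marker of a leaf cell type was called: the counts in the authors' deposited table were 0 of 4 for mesophyll, 0 of 5 for guard cells, 0 of 4 for the epidermis and 0 of 5 for vascular tissue. This is 0 of 18 markers, beside 16.4% of all tested genes, and how many of the markers were tested is unknown. Their levels are not in a table of called genes, so the labelled tissue could not be checked against them, and the part of cell composition in the members' decreases was not tested.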

How the data were processed

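Poly(A) RNA of 8 protoplast libraries was sequenced, 4 labelled div1 and 4 ev by their titles. Per the submitters' processing notes, fastp 0.21.0, HISAT2, featureCounts 2.0.1, DESeq2 and the TAIR10 build were used, with settings not given in the sources used here. In the deposited table, per the file headers, stand a log2 fold change with its SE, a score that is their quotient, the p-value before and after adjustment, and for each gene a signal, the mean normalized count over libraries as averaged by the authors. Adjusted p are those of the authors' DESeq2 fit over all genes tested, and no test of samples was run here. Depth per library is unknown.

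The number tested was recovered from the ratio of adjusted to raw p at each rank, a step tested on simulated data. Intervals are the log2 fold change ± 1.96 SE. Group means assume equal group sizes. Positions, transcripts (the isoform with the longest coding sequence) and upstream bases came from RefSeq TAIR10.1, in which all 45 members matched; the table holds no coordinates. Coding sequences were aligned globally with Biopython 1.88 under Python 3.11.15, with pandas 2.3.3.

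The members, lists and words were chosen with earlier results of these data known. Every member was to be named, and up to 4 called genes of each of 9 other wall lists. Alternatives were adjusted p under 0.01 and under 0.001, 2-fold, a mean count of at least 100, no overlapping genes, centring, Bonferroni adjustment and a window of 150 bases. The upstream sequence of 1 called member is not reported here.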

Additional observations from a re-analysis of the deposited data

How the results depend on the processing

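The stricter settings only remove calls and cannot turn a direction. At an adjusted p under 0.001, 2 of 45 members remained (EXPA4 and XTH24), 1 of them an expansin, beside 2.77% of all tested genes lower. At 2-fold or more 2 of 45 remained (EXPA1 and EXPA4), beside 2.2% of all tested genes lower. At this setting 0 XTH and 0 CESA members and 0 other wall genes were lower. Under Bonferroni adjustment over the genes tested by DESeq2, 1 of 45 remained, XTH24 (adjusted p = 0.00706), beside 1.64% of all tested genes lower. With it EXPA4 (adjusted p = 0.293), EXPA1 and CESA6 were lost. CESA6 was lost at an adjusted p under 0.01 and under 0.001, leaving 0 CESA calls, beside 4.56% and 2.77% of all tested genes lower. Centring subtracts the table's median of 0.41 on the log2 scale, which can only lower values already below 0. It moved CESA6 from -0.29 to -0.71, and the table's split from 1646 higher and 1312 lower to 1479 each. Leaving out genes that overlap another removed HERK1 and no called member. In the nearest 150 bases 2 members held TATCCA (4.44%), beside 8.23% of all windows of protein-coding genes. In 250 bases 5 members did (11.1%), beside 13.6%. No paired analysis was possible because the table holds no values per library, and for the same reason no replicate was left out. Depth is unknown.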

Other observations

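Further genes carry the family words expansin, xyloglucan or cellulose synthase in their annotation, and 5 of these outside the lists had a row; they were named after their values were seen. The cellulose synthase-like genes make other wall glycans or have no settled product. CSLB04 (AT2G32540) stood at 4.53 on the log2 scale (SE 0.46, adjusted p 1.20e-20) at a mean of 273 normalized counts in the authors' deposited table. CSLE1 (AT1G55850) stood at 1.54 (SE 0.28, adjusted p 2.04e-06) at a mean of 3615 normalized counts in the authors' deposited table. CSLA14 (AT3G56000) stood at 1.80 (SE 0.60, adjusted p 0.0209) at a mean of 77 normalized counts in the authors' deposited table. CSLA11 (AT5G16190) stood at -2.34 (SE 0.38, adjusted p 4.19e-08) at a mean of 291.5 normalized counts in the authors' deposited table. Both are of the class that includes mannan synthases. XEG113 (AT2G35610), a glycosyltransferase known for adding arabinose to extensins despite its xyloglucanase name, stood at -0.57 (SE 0.14, adjusted p 4.46e-04) in the authors' deposited table. Of 35 genes with cellulose synthase in the annotation, CESA6 among them, 5 had a row (14.3%), close to the 16.4% of all tested genes. For xyloglucan 3 of 35 had a row (8.57%), and for expansin 2 of 34 (5.88%).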
